A study of Homo sapiens with 5 samples.

Results

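The BCL2 family apoptosis regulators were described through all 18 probes that the platform annotation assigns to 10 genes, of 28264 probes and 19090 named genes on the array. The genes comprised 5 BH3-only genes (HRK, BBC3, PMAIP1, BCL2L11 and BID), 3 pro-survival genes (BCL2, BCL2L1 and MCL1) and 2 effector genes (BAX and BAK1). BCL2L11 had 5 probes, PMAIP1, BCL2, BAX and BAK1 had 2 each, and HRK, BBC3, BID, BCL2L1 and MCL1 had 1 each. RNA came from MHCC97H, an established human hepatocellular carcinoma line, carrying ACOT12 (n = 2 arrays), an ACOT12 mutant (n = 1) or empty vector (n = 2). ACOT12 is a cytosolic thioesterase that hydrolyses acetyl-CoA, and the series asks which genes lie downstream of it. All 3 lines were stable transfectants selected with puromycin for 1 week. The labels name neither the promoter that drives the transgene nor the residue changed in the mutant, and whether the replicates were grown separately is not stated, so the spread behind each p-value is that of these arrays and may be technical. The single mutant array has no replicate.

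BCL2 proteins decide whether the outer mitochondrial membrane is permeabilized. BAX and BAK1 form the pores, the pro-survival proteins BCL2, BCL2L1 (BCL-XL) and MCL1 restrain them, and the BH3-only proteins bind and neutralize the pro-survival proteins or activate the effectors directly. In hepatocytes BCL2L1 and MCL1 are the pro-survival members on which survival is known to depend. Several BH3-only genes are controlled mainly by transcription, which is why their RNA is informative, whereas BID is activated by cleavage and BAX and BAK1 by a change of shape, which an expression array does not read.

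The arrays had median deposited intensities from 616 to 825. The single ACOT12 probe read 4733 and 4859 deposited units with ACOT12, 4030 with the mutant and 59.2 and 18.02 with empty vector. After quantile normalization both transgenes passed limma's test against empty vector, at an adjusted p of 0.00302 for ACOT12 and 0.00410 for the mutant. Of 12 markers of liver and hepatocellular carcinoma, 7 lay above the median of every array, AFP among them, while GPC3 and APOA2 lay under the 25th percentile of every array. Of the leukocyte markers on the array, PTPRC and CD3E lay under the 25th percentile of every array, and CD14 and CD68 above the median. The deposited readings of 5 fibroblast markers summed to 4396 and 4520 with ACOT12, 1365 with the mutant and 4224 and 2692 with empty vector, and 3 of the 5 lay under the 25th percentile of every array. Most of that sum was COL1A1, at 3882 and 3905 with ACOT12, 891 with the mutant and 3738 and 2288 with empty vector. PDGFRB was also lowest with the mutant, whereas COL1A2, COL3A1 and DCN were not. The sum of 4 endothelial markers was 3721 and 4291 with ACOT12, 2206 with the mutant and 3874 and 3180 with empty vector. It too was lowest with the mutant. The leukocyte sum was highest there, at 13786, against 12100 and 13783 with ACOT12 and 11361 and 11498 with empty vector. It exceeded that of ACOT12 replicate 2 only slightly. Most of it was CD68, at 9213 and 10027 with ACOT12, 11186 with the mutant and 8334 and 8177 with empty vector. CD14 was instead lowest with the mutant, at 2507, against 2691 and 3543 with ACOT12 and 2881 and 3251 with empty vector. The liver sum with the mutant, 154566, lay between those of the ACOT12 arrays (144372 and 172868). Most of it was KRT18, at 120838 and 151649 with ACOT12, 131670 with the mutant and 129326 and 119691 with empty vector. ALB was lowest with the mutant, at 853, against 1755 and 1209 with ACOT12 and 2771 and 2843 with empty vector. AFP was highest there, at 3813, against 3480 and 3380 with ACOT12 and 3607 and 3764 with empty vector. The other liver markers went no single way with the mutant. These are deposited units, and the mutant array had the lowest median. The part of these markers in the mutant's values was not tested.

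HRK (harakiri), a BH3-only protein that binds BCL2 and BCL2L1, was the tested member with the lowest readings relative to empty vector under either transgene. The gene lies on chromosome 12 at 116856144 to 116881441 (GRCh38.p14, RefSeq). On the quantile-normalized intensity scale its probe (PH_hs_0004906) read 337 and 248 with ACOT12, 342 with the mutant and 527 and 742 with empty vector. The 3 transgene arrays thus lay below both empty vector arrays. Both ACOT12 arrays did so on 16.9% of all tested probes, and the share for all 3 transgene arrays was not counted. The log2 difference between ACOT12 and empty vector was −1.11 ± 0.23 (SE, n = 2 each), a ratio of 0.463, with an unadjusted p of 0.00282 and a limma adjusted p of 1. Only 18 of 19543 tested probes, or 0.0921%, had a difference at least as low, counting HRK itself. HRK was already known as a low gene from earlier results of these arrays, so this rank is a description. For the mutant against empty vector the difference was −0.87 ± 0.29 (unadjusted p = 0.0220, adjusted p = 0.173), and 5.05% of tested probes lay as low or lower.

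Neither HRK difference passed the adjusted threshold of 0.05, and the direction stayed below 0 under each alternative in which HRK was tested, at −1.36 to −0.85 for ACOT12 and −1.26 to −0.61 for the mutant. The filter at the 50th percentile removed HRK, whose mean lay at the 40.2nd percentile, so it has no value there. Both passed with array medians centred, at −1.04 (limma, adjusted p = 0.00765) and −0.98 (adjusted p = 0.0162), a setting under which 60 and 1921 probes passed in all and limma gave all 16 tested member probes the same standard error (0.24 for ACOT12, 0.30 for the mutant). Under the other alternatives in which HRK was tested, neither passed. The mean of the deposited HRK values was 339 ± 63.3 with ACOT12 and 636 ± 85.7 with empty vector (SD, n = 2 each), with the mutant array at 264. HRK differed between ACOT12 and the mutant by −0.25 ± 0.29 (adjusted p = 0.690), and this direction turned to 0.35 with the values as deposited, so the order of both transgenes is not resolved. In a bulk sample, fewer cells with the transcript and less transcript per cell cannot be told apart.

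**Figure D1:**
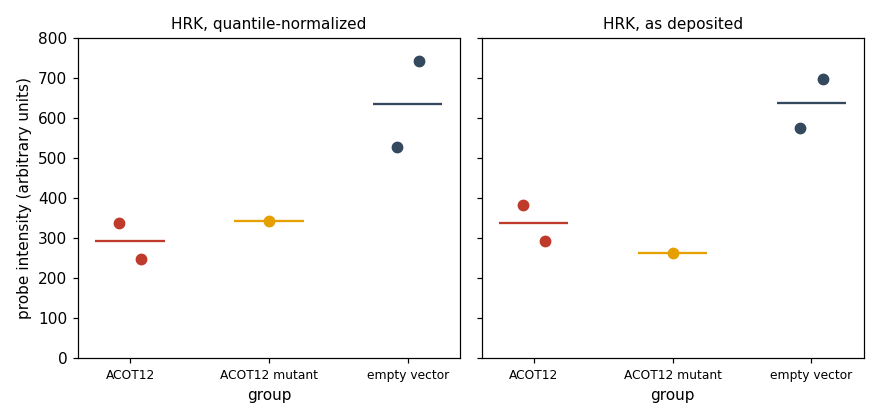
HRK probe intensity in arbitrary units (y axis) by group, quantile-normalized on the left and as deposited on the right. Points are single arrays and lines are group means. The 3 transgene arrays lie below both empty vector arrays in each panel, at 248 to 342 against 527 and 742 normalized units and at 264 to 383 against 576 and 697 deposited units.

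The 250 bases before the HRK transcription start are printed because HRK is the tested member that stands lowest in both comparisons with empty vector. They lie at chr12:116881442-116881691 on the minus strand (GRCh38.p14, RefSeq) and read 5′ to 3′ with capitals at matches to the GC box GGGCGG on either strand.
HRK: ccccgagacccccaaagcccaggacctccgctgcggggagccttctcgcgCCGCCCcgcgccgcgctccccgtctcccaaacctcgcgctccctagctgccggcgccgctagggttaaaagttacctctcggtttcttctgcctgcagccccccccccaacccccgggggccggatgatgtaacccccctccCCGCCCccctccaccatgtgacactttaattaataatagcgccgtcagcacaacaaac
The GC box, the letters that the factor SP1 binds, was matched at 2 places without overlap. It occurs in 42.6% of the 35116 promoter windows of this length, so its presence in HRK is common. The windows of PMAIP1 and BCL2L11 held 4 and 3 matches, that of BAK1 held 2, as in HRK, and that of BAX held 1. Those of BBC3 and BCL2 held 0. BCL2L1 had 2 windows, each with 0 matches, and MCL1 had no window in the promoter set used. BID had 5 windows, with 0 to 4 matches. A match is not evidence of binding, and no binding was measured.

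The probes of other genes whose profile over the 5 arrays was closest to that of HRK were those of SLC7A2, a cationic amino acid transporter, RGS13, a regulator of G protein signalling, ITGA10, an integrin subunit, COPG2, a coatomer subunit, and COLCA1. Likeness was the mean absolute log2 difference between profiles, each taken relative to its own mean. These distances ran from 0.176 for SLC7A2 to 0.204 for COLCA1, against a median of 0.513 over 19542 probes. They were picked as the smallest, so lying under that median follows from the choice. SLC7A2 and ITGA10 each had 2 tested probes, and the other probe of each was not among the nearest. COLCA1 for example read 469 and 466 normalized units with ACOT12, 482 with the mutant and 891 and 886 with empty vector. With 5 arrays such profiles are few-valued, and they describe these arrays alone.

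Of the other BH3-only genes, BBC3 (PUMA), a p53 target that binds every pro-survival protein, read 2093 and 1772 normalized units with ACOT12, 2674 with the mutant and 2453 and 2059 with empty vector. The ACOT12 and empty vector arrays overlapped, and the mutant array was the highest of all. The log2 differences were −0.22 ± 0.17 for ACOT12 against empty vector (limma, adjusted p = 1), 0.25 ± 0.21 for the mutant against empty vector (adjusted p = 0.548) and −0.47 ± 0.21 for ACOT12 against the mutant (adjusted p = 0.25). The 95% interval of the last ran from −0.98 to 0.034.

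PMAIP1 (NOXA), a BH3-only protein that binds MCL1, was read by a pair of probes. PH_hs_0061438 read 7848 and 8408 with ACOT12, 7870 with the mutant and 8333 and 9852 with empty vector. PH_hs_0027514 read 2335 and 3157 with ACOT12, 2834 with the mutant and 2401 and 3252 with empty vector. The groups with 2 arrays overlapped on both probes, and each spanned most of the range of PH_hs_0027514. Differences from empty vector were −0.16 ± 0.16 and −0.041 ± 0.22 for ACOT12 (95% intervals −0.54 to 0.22 and −0.58 to 0.50).

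BID, the BH3-only protein that links death receptors to mitochondria, read 3302 and 3702 with ACOT12, 3639 with the mutant and 3222 and 3391 with empty vector. It was one of the steadiest members, at 0.081 ± 0.15 for ACOT12 and 0.14 ± 0.18 for the mutant against empty vector. The 95% interval for ACOT12 ran from −0.28 to 0.44.

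BCL2L11 (BIM), a BH3-only protein that binds every pro-survival protein and activates BAX and BAK1, had 5 probes that did not move together. On PH_hs_0022197 the readings were 2162 and 2604 with ACOT12, 1464 with the mutant and 2027 and 2034 with empty vector, so the mutant array was lowest and both ACOT12 arrays were highest. On PH_hs_0061414 they were 750.3 and 800.01 with ACOT12, 1057 with the mutant and 674 and 785 with empty vector, so the mutant array was highest. The mutant was likewise highest on 2 further probes. PH_hs_0044718 read 6842 and 6465 with ACOT12, 8353 with the mutant and 6051 and 6582 with empty vector, and PH_hs_0060300 read 247 and 429 with ACOT12, 520 with the mutant and 316 and 424 with empty vector. On the fifth, PH_hs_0063637, an ACOT12 array was the highest and an empty vector array the lowest, with 4885 and 6160 for ACOT12, 5174 for the mutant and 5147 and 4245 for empty vector.

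For the mutant against empty vector, these 5 probes gave log2 differences of −0.47 ± 0.19 (PH_hs_0022197), 0.54 ± 0.19 (PH_hs_0061414), 0.40 ± 0.18 (PH_hs_0044718), 0.51 ± 0.36 (PH_hs_0060300) and 0.15 ± 0.23 (PH_hs_0063637), with limma adjusted p from 0.192 to 0.763. Averaged over its probes, BCL2L11 read 0.22 ± 0.19 for the mutant (adjusted p = 0.546) and 0.091 ± 0.15 for ACOT12 (adjusted p = 1). ACOT12 stood 0.70 ± 0.19 above the mutant on PH_hs_0022197 (adjusted p = 0.102), which passed with the values as deposited (0.93, adjusted p = 0.0474). In the same comparison PH_hs_0060300 (−0.67), PH_hs_0061414 (−0.45) and PH_hs_0044718 (−0.33) went the other way, PH_hs_0063637 gave 0.084, and the average over the probes was −0.13 ± 0.19 (adjusted p = 0.738). The gene yields several spliced isoforms, but the files do not say which one each probe reads.

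Among the pro-survival genes, BCL2L1 read 12825 and 11278 with ACOT12, 13331 with the mutant and 11963 and 12086 with empty vector. The empty vector arrays lay between the ACOT12 arrays. The log2 difference for ACOT12 was 0.00031 ± 0.15, with a 95% interval of −0.36 to 0.36, not adjusted for the number of probes. That interval rests on the spread of these arrays, which may be technical. The mutant stood 0.15 ± 0.18 above empty vector (limma, adjusted p = 0.691).

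MCL1, a short-lived pro-survival protein, read 21913 and 18725 with ACOT12, 19552 with the mutant and 24120 and 22883 with empty vector. All 3 transgene arrays lay below both empty vector arrays, as for HRK, but by less. Both ACOT12 arrays did so on 16.9% of all tested probes, and the share for all 3 transgene arrays was not counted. Against empty vector, ACOT12 gave −0.21 ± 0.15 (limma, adjusted p = 1). The mutant gave −0.26 ± 0.19 (adjusted p = 0.481), a difference that turned to 0.025 with array medians centred.

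BCL2, the founding member, was read by 2 probes, and neither passed the filter on dim probes. The deposited readings of PH_hs_0004581 were 65.8 and 79.8 with ACOT12, 44.7 with the mutant and 50.03 and 31.5 with empty vector. Those of PH_hs_0044729 were 63.7 and 62.9 with ACOT12, 25.6 with the mutant and 40.8 and 34.9 with empty vector. All of these lay at the 10.5th percentile of their array or lower. BCL2 was therefore not shown to be above background on any array and was not tested, and no fold change is given.

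The effectors were read by 4 probes. BAX read 67118 and 71567 with ACOT12, 79524 with the mutant and 75370 and 80023 with empty vector on PH_hs_0027269. On PH_hs_0044719 it read 18954 and 25473 with ACOT12, 21743 with the mutant and 22168 and 23193 with empty vector. The first probe put both ACOT12 arrays lowest, and on the second they were the lowest and the highest. The differences for ACOT12 were −0.16 ± 0.14 and −0.045 ± 0.19, and for the mutant 0.034 ± 0.18 and −0.061 ± 0.23, where the last turned to 0.24 with array medians centred.

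BAK1 was the effector with the largest difference, on 1 of its 2 probes. PH_hs_0060710 read 18042 and 19756 with ACOT12, 10112 with the mutant and 17952 and 13995 with empty vector. PH_hs_0043249 read 5847 and 6336 with ACOT12, 7210 with the mutant and 6316 and 7781 with empty vector. The mutant array was thus the lowest of all on PH_hs_0060710 and lay between the empty vector arrays on PH_hs_0043249. On PH_hs_0060710 ACOT12 exceeded the mutant by 0.90 ± 0.22 (limma, unadjusted p = 0.00541, adjusted p = 0.0758). The mutant stood at −0.65 ± 0.22 against empty vector there (adjusted p = 0.175). On PH_hs_0043249 the values were −0.24 ± 0.20 and 0.041 ± 0.20. The average of both probes gave 0.33 ± 0.16 for ACOT12 against the mutant (adjusted p = 0.302), so the gene as a whole was not called.

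**Figure D2:**
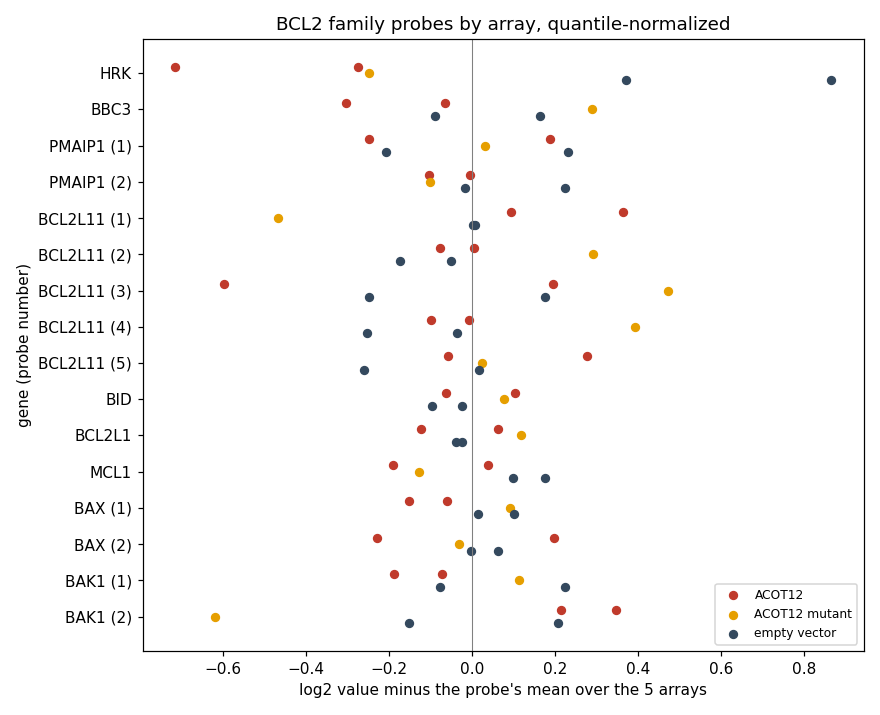
Each tested probe of the BCL2 family (y axis, with probes of a gene numbered in the order of their identifiers) by array, as the quantile-normalized log2 value minus the probe's mean over the 5 arrays (x axis). Points are single arrays, with 2 for ACOT12, 1 for the mutant and 2 for empty vector. HRK has the widest spread, and the mutant stands low on BCL2L11 probe 1 and BAK1 probe 2 but not on their other probes.

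Over the family, 16 of 18 probes passed the filter on dim probes and were tested. For ACOT12 against empty vector 0 of 16 passed limma's test after adjustment, where 0.0102% of all tested probes passed. At an unadjusted p under 0.05 there was 1 member probe, that of HRK, against 2.22% of all probes. The groups did not overlap on 5 of 16 member probes (2 higher, 3 lower), beside 28.2% of all probes (11.4% higher, 16.9% lower). The median log2 difference was −0.043 over the members and −0.012 over all tested probes, and 15 of 16 member differences lay within 0.3 of 0, as did 88.7% of all probes. By role the medians were 0.017 for the 10 BH3-only probes, −0.11 for the 2 pro-survival probes and −0.10 for the 4 effector probes.

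For the mutant against empty vector 0 of 16 member probes passed, where 0.0665% of all probes passed. At an unadjusted p under 0.05 there were 4 members, those of HRK, BAK1 and 2 of BCL2L11, against 20.3% of all probes. The member median was 0.037 against 0.021 over all probes, and 10 of 16 lay within 0.3 of 0, against 56.6%. On 13 of 16 member probes the single mutant reading fell outside the pair of empty vector readings, against 83.5% of all probes, so the family's share was near that of the whole array.

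For ACOT12 against the mutant 0 of 16 passed, where 2.34% of all probes passed, of which 419 were higher and 38 lower. That balance was 1636 higher and 1027 lower with array medians centred. At an unadjusted p under 0.05 there were 2 members, PH_hs_0022197 of BCL2L11 and PH_hs_0060710 of BAK1, against 22.7% of all probes. The member median was −0.11 against −0.060 over all probes, and 10 of 16 lay within 0.3 of 0, against 56.7%. The groups did not overlap on 10 of 16 member probes, beside 73.3% of all probes. These 3 comparisons share arrays, so their values are given side by side and are not independent.

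**Figure D3:**
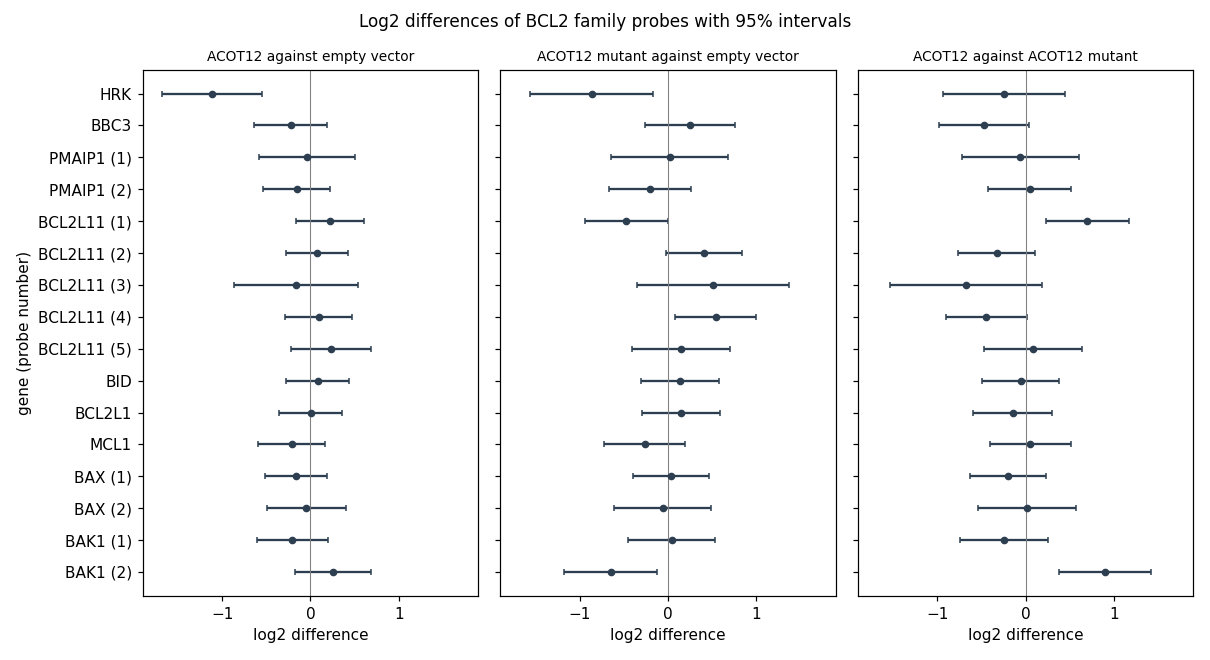
Log2 differences of the tested BCL2 family probes (x axis) for the 3 comparisons, with limma's 95% intervals, not adjusted for the number of probes, as bars; rows are probes, grouped by gene. HRK lies at −1.11 for ACOT12 and −0.87 for the mutant against empty vector, and the interval of BCL2L1 for ACOT12 is −0.36 to 0.36.

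Among 13 other BCL2 family genes, of which 11 were tested with 16 probes, 13 probes read higher and 3 lower with ACOT12 than with empty vector (median 0.15), where 46.9% of all tested probes read higher. With the mutant 11 read higher and 5 lower (median 0.25, 52.4% of all probes higher), and between ACOT12 and the mutant 9 and 7 (median 0.024, 43.3% higher). Of these probes 0 passed limma's test in any of the 3 comparisons, where 0.0102%, 0.0665% and 2.34% of all probes passed. At an unadjusted p under 0.05 there were 2, 4 and 3 of 16, beside 2.22%, 20.3% and 22.7% of all probes. BCL2L15, a BCL2-like gene of the gut, was higher on each of its 3 tested probes. Its probe PH_hs_0060791 read 4377 and 3742 normalized units with ACOT12, 6764 with the mutant and 3290 and 2697 with empty vector. On that probe ACOT12 stood 0.44 ± 0.17 above empty vector (adjusted p = 1). The mutant stood 1.18 ± 0.21 above it (adjusted p = 0.0859). The other 2 probes gave 0.52 and 0.70 for ACOT12 and 1.01 and 0.87 for the mutant.

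BNIP3L, a mitophagy receptor with a BH3-like motif, had the lowest difference for ACOT12 in this list, with 1 array far from the other 4. It read 81.7 and 1315 with ACOT12, 1580 with the mutant and 1230 and 1397 with empty vector, and its difference was −1.99 ± 1.14 (adjusted p = 1). ACOT12 replicate 1 lay far below the other ACOT12 array. BCL2L14, a BCL2-like gene, stood higher with ACOT12 than with the mutant on both probes, at 0.96 ± 0.26 (adjusted p = 0.0972) and 0.44 ± 0.19 (adjusted p = 0.229).

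The list of apoptosome and caspase genes also held the VDAC channels and the caspases CASP8 and CASP10, so it was not confined to steps downstream of the mitochondria. Its 21 probes of 16 genes had differences between −0.25 and 0.20 for ACOT12 against empty vector. Of these probes 8 read higher, 13 lower and 0 passed, where 46.9% of all probes read higher and 0.0102% passed. The smallest unadjusted p in each direction belonged to CASP6, an executioner caspase, at 0.20 ± 0.20 and CASP8, the initiator caspase of death receptors, at −0.21 ± 0.16. With the mutant, ENDOG, a mitochondrial nuclease, read 0.53 ± 0.17 (limma, adjusted p = 0.172) and CASP10, another initiator caspase, −0.77 ± 0.20 on one probe (adjusted p = 0.117) and 0.26 ± 0.22 on its other. Inhibitors of apoptosis, with 11 probes, had medians of −0.069 for ACOT12 and −0.17 for the mutant against empty vector and 0 passing, beside 0.0102% and 0.0665% of all probes. There the 2 probes of NAIP gave −0.40 ± 0.21 and 0.071 ± 0.21 for ACOT12.

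The list of death receptor genes, which also held their ligands, adaptors and the inhibitor CFLAR, had 13 tested probes of 8 genes. FAS and RIPK1 of that list had no tested probe. Of the 13 probes 0 passed in any of the 3 comparisons, where 0.0102%, 0.0665% and 2.34% of all probes passed. TNFRSF10A, a receptor for TRAIL, read 5636 and 5908 normalized units with ACOT12, 3320 with the mutant and 6101 and 4650 with empty vector. The mutant array was the lowest, at −0.68 ± 0.22 against empty vector (limma, adjusted p = 0.166), and ACOT12 stood 0.80 ± 0.22 above the mutant (adjusted p = 0.0990). TNFSF10, which encodes TRAIL itself, gave 0.87 ± 0.23 for ACOT12 against the mutant on one probe and −0.68 ± 0.66 on its other.

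Regulators of BH3-only genes and p53 targets, with 25 probes of 18 genes, likewise gave 0 passing, against the same shares of all probes, with medians of −0.023 for ACOT12 and −0.085 for the mutant against empty vector. With the mutant 8 probes read higher and 17 lower, where 52.4% of all probes read higher. TP53I3, a p53 target, gave 0.78 ± 0.21 (limma, adjusted p = 0.125), and MDM2, the ubiquitin ligase of p53, 0.76 ± 0.21 (adjusted p = 0.126) on one probe and 0.098 ± 0.18 on its other. In the other direction TIGAR, a p53 target that acts on glycolysis, gave −0.50 ± 0.18 (adjusted p = 0.202), and PH_hs_0061201 of TP73, a p53 relative, gave −0.62 ± 0.25 (adjusted p = 0.242). The other TP73 probe, PH_hs_0022923, gave 0.24 ± 0.25 for the mutant. For ACOT12 against empty vector the TP73 probes also went opposite ways, at 0.44 ± 0.21 on PH_hs_0061201 and −0.62 ± 0.20 on PH_hs_0022923.

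**Figure D4:**
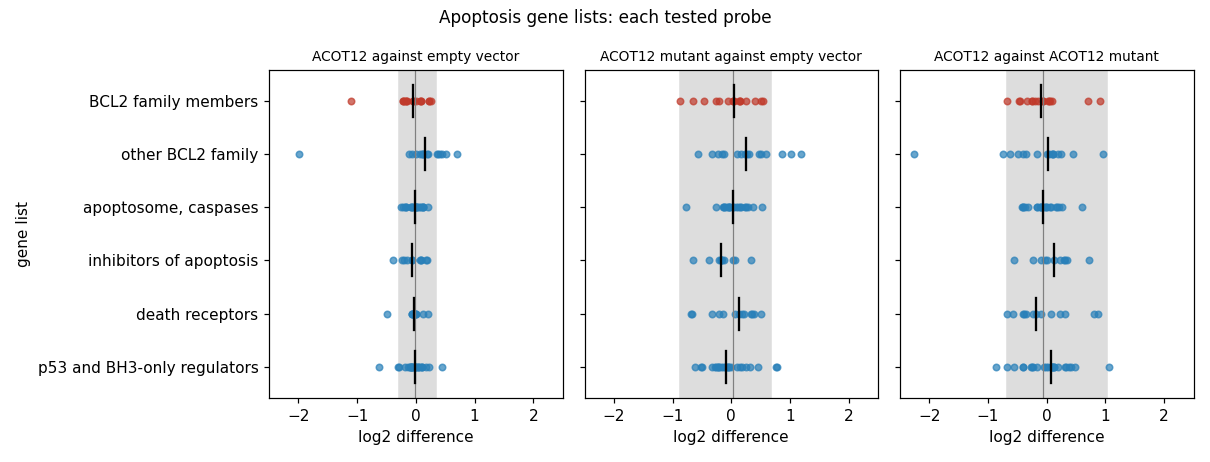
Log2 differences (x axis) of each tested probe in the BCL2 family members and 5 further apoptosis lists (y axis) for the 3 comparisons. Black bars are list medians, the grey line is the median of all tested probes and the grey band spans their 5th to 95th percentile; HRK (−1.11) and BNIP3L (−1.99) are the points farthest below the band for ACOT12 against empty vector.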

How the data were processed

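Trizol-extracted RNA was amplified by an amino allyl method and dyed with Cy5, 1 array per sample, per the labels' protocols. The authors deposited linear intensities per probe, judging by the values, with some below 0 on 3 arrays. For scanner, background correction and scaling, the sources used here give nothing. Array means were nearly equal (6804 to 6975) while medians were not, so the arrays do not share 1 distribution.

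Intensities below 0 were set to 0, 1 was added, log2 was taken and arrays were quantile-normalized over 28264 probes. "Normalized" readings are these values turned back to the linear scale. Named probes with a mean log2 value of at least the 25th percentile (7.34) were tested, which left 19543. Of all probes, 25893 had 1 gene symbol, 0 several and 2371 none. One model over all 5 arrays was fitted with limma 3.58.1 in R 4.3.3 (lmFit and eBayes, 2 residual degrees of freedom, two-sided) and adjusted by Benjamini-Hochberg over all tested probes, at 0.05. The mutant group's spread was taken from the other groups. With 2 arrays a group, exact permutation reaches no p below 0.333, so none was run. Errors are limma's standard errors unless given as SDs. The number of arrays limits the precision.

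No probe had equal values on any pair of arrays. The members, the lists and the rule for named genes were chosen with earlier results of these data known. All member probes are described, with up to 2 probes per list, comparison and direction by smallest unadjusted p (and the other probes of such a gene), and the 5 probes nearest to HRK. The fit was tested on simulated data.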

Additional observations from a re-analysis of the deposited data

How the results depend on the processing

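Over all alternatives, 629 values of BCL2 family probes kept their direction and side of the threshold, 5 passed it and 42 changed direction. Passing were HRK with array medians centred (−1.04 for ACOT12 and −0.98 for the mutant against empty vector) and, for ACOT12 against the mutant, PH_hs_0022197 of BCL2L11 as deposited (0.93). The replicate block added PH_hs_0060300 of BCL2L11 (−0.98) and PH_hs_0060710 of BAK1 (0.96). Member probes called thus numbered 1, 1 and 0 with array medians centred (ACOT12 against empty vector, mutant against empty vector, ACOT12 against mutant), 0, 0 and 1 as deposited and 0, 0 and 2 with the replicate block. The cause was not tested.

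Probes called over the whole array were 2, 13 and 457 for those comparisons. They were 0 for ACOT12 against empty vector and 1737 for ACOT12 against the mutant as deposited, 60, 1921 and 2663 with array medians centred, and 228 and 1239 (mutant comparisons) with cyclic loess. Without the filter they were 1, 46 and 45, and at the 50th percentile 0, 2 and 221. With the highest probe per gene 8 and 5 passed in the mutant comparisons, and with probes averaged 6 and 1. Robust eBayes gave 774 for ACOT12 against the mutant. Leaving out 1 array gave 0 to 3, 0 to 392 and 0 to 910. The lowest of each range came without ACOT12 replicate 2 and the highest without empty vector replicate 2. As deposited, the median of all tested probes was −0.12 for the mutant against empty vector and 0.13 for ACOT12 against the mutant; with array medians centred these were 0.16 and −0.28. Of higher and lower calls for the mutant against empty vector there were 3 and 10, against 821 and 1100 with array medians centred.

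Replicate numbers are shared between ACOT12 and empty vector, but the labels tie them to no culture or day. The deviations of same-numbered arrays correlated at 0.196 over probes, with 2 pairs. With the replicate block 1369 (mutant against empty vector) and 2179 (ACOT12 against mutant) probes passed, on 1 residual degree of freedom.

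Directions that turned for ACOT12 against empty vector were, as deposited, PH_hs_0060300 of BCL2L11 (0.040) and BCL2L1 (−0.013), and with array medians centred PH_hs_0044718 of BCL2L11 (−0.051), BID (−0.038) and BCL2L1 (−0.14). For the mutant against empty vector they were, as deposited, PH_hs_0027514 of PMAIP1 (−0.090) and PH_hs_0043249 of BAK1 (−0.0056); with array medians centred PH_hs_0061438 of PMAIP1 (0.041), MCL1 (0.025) and PH_hs_0044719 of BAX (0.24); with cyclic loess PH_hs_0027514 (−0.0080); and with the replicate block PH_hs_0044719 (0.062). For ACOT12 against the mutant they were, as deposited, HRK (0.35), PH_hs_0027514 (0.078), BID (0.043) and PH_hs_0044719 (−0.022). With array medians centred they were PH_hs_0061438 (−0.33), PH_hs_0063637 of BCL2L11 (−0.26), MCL1 (−0.39) and PH_hs_0044719 (−0.43). With cyclic loess PH_hs_0044719 turned (−0.00071), and with the replicate block PH_hs_0061438 (−0.040) and PH_hs_0044719 (−0.11).

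Leaving out 1 array in turn gave ranges across 0 for 15 values. For ACOT12 against empty vector these were PH_hs_0061414 (−0.019 to 0.20) and PH_hs_0060300 (−0.57 to 0.23) of BCL2L11, BCL2L1 (−0.092 to 0.094), PH_hs_0027514 of PMAIP1 (−0.26 to 0.18), PH_hs_0044719 of BAX (−0.26 to 0.17) and BID (−0.0017 to 0.17). For the mutant against empty vector they were PH_hs_0027514 (−0.20 to 0.24), PH_hs_0027269 of BAX (−0.0096 to 0.079) and PH_hs_0043249 of BAK1 (−0.11 to 0.19). For ACOT12 against the mutant they were PH_hs_0027514 (−0.28 to 0.16), BID (−0.14 to 0.025), MCL1 (−0.063 to 0.17), PH_hs_0061438 (−0.0046 to 0.097), PH_hs_0063637 (−0.085 to 0.26) and PH_hs_0044719 (−0.20 to 0.23). No detection flags were used, so signal near the floor, as for BCL2, could not be told from background.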
